A study of Arabidopsis thaliana with 16 samples.

Results

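The transcripts described here were lower than wild type in the seu single mutant, in the ant single mutant and in the seu ant double mutant of Arabidopsis thaliana. They were chosen from 22746 ATH1 probe sets by genotype means of log2 signal, with signals under 16 set to 16. A probe set was kept where the wild-type mean was at least 7, where the seu mean and the ant mean each lay more than 0.5 below wild type, and where the seu ant mean lay at least 1 below it. These limits were met by 160 probe sets, and 156 members remained after NUB, YAB3, REM1 and AT1G03720 were left out. Centring each array on its median first left 93 members, and leaving out a single array left between 92 and 204, with the lowest count without ant array 3. Of the 156 members, 91 were paired with 1 gene, 4 with several genes and 61 with no gene. Because the means chose the members, every difference between a mutant and wild type is given below as a description. Counts of members called on these differences are no independent test.

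Gynoecia were dissected by hand at floral stages 8 to 10 from plants of 4 genotypes: Col-0, used as wild type, the single mutants seu-3 and ant-1, and the double mutant seu-3 ant-1. Each genotype had 4 biological samples on 4 ATH1 arrays, and 15 to 25 gynoecia were pooled for each array. Each mutant locus was represented by a single allele, and the whole gynoecium was sampled, so a transcript made by a few cells was measured together with all other carpel tissue.

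SEUSS (SEU) encodes a transcriptional co-regulator that works in complexes with LEUNIG and is brought to DNA by partner proteins. AINTEGUMENTA (ANT) encodes an AP2-type transcription factor that promotes organ growth and ovule development. Both act in the carpel margin meristem, the ridge inside the gynoecium from which placentae and ovules arise, and plants that lack both functions are known to form carpels with few or no ovules. Ovule primordia emerge from it during the floral stages sampled here.

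The labels were checked on the SEU transcript, whose signal lay 1.72 log2 units below wild type in seu and 1.82 below in seu ant, with a difference of -0.12 in ant. The ANT transcript was not analysed here. Median signal per array ranged from 153 to 189, between 20.0% and 24.4% of probe sets per array were at the floor of 16, and arrays of 1 genotype correlated at 0.972 to 0.986 over all probe sets. The array median of ant lay 0.16 log2 units below that of wild type, while the shifts of seu and seu ant were -0.08 each. Of the gynoecium markers that were measured, SPT, NGA1, NGA2 and NGA3 had wild-type means of 10.20, 8.98, 8.23 and 7.06 on the log2 scale, and INO, an ovule gene of later stages, was near the floor at 4.18. Both measured tapetum markers, AMS and MEE48, were near the floor in all genotypes, with a summed signal of 32 to 58.0 per array. In pools of whole gynoecia, fewer cells of a type and less RNA per cell cannot be told apart.

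The members fell into 2 kinds by a measure that the rule did not use, the spread between arrays of the same genotype. The SD pooled over the 4 genotypes was at most 0.734 log2 units for 94 members and at least 0.913 for the other 62, with no member between these values. The first kind is called steady and the second variable below, with the division set at 0.8 after the values were seen. The median pooled SD was 0.361 for steady members and 1.45 for variable members. Of all 12302 probe sets with a wild-type mean of at least 7, 88 had a pooled SD of at least 0.8, and 62 of these 88 were the variable members.

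**Figure D1:**
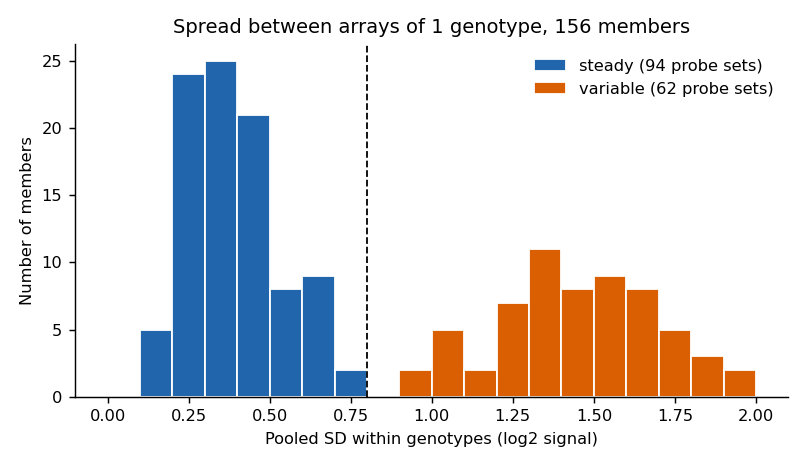
Histogram of the within-genotype SD of log2 signal (horizontal axis) for the 156 members, in bins of 0.1, with the number of members on the vertical axis. The dashed line at 0.8 divides 94 steady members, at or below 0.734, from 62 variable members, at or above 0.913.

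Both kinds met the same limits, but their arrays behaved differently. The median level over the steady members was 8.39, 8.33, 8.46 and 8.25 log2 units on the 4 wild-type arrays, between 7.20 and 7.62 for seu, between 7.30 and 7.59 for ant and between 6.23 and 6.79 for seu ant. No array median of a mutant reached the lowest one of wild type, and the seu ant medians all lay below those of both single mutants. The median over the variable members was 8.55, 10.33, 7.35 and 6.76 on the wild-type arrays, a range of 11.8-fold in signal. It was 4.90, 7.59, 4.62 and 5.25 in seu, 8.82, 8.63, 5.36 and 6.78 in ant, and 4.95, 5.71, 6.02 and 4.59 in seu ant. For the variable members the arrays of wild type, seu and ant thus overlapped, and 2 ant arrays lay above 3 of the wild-type arrays. Arrays 1 and 2 of each genotype carry the lower numbers in the sample titles and arrays 3 and 4 the higher, and the labels do not say what these numbers mark. In wild type and in ant, the variable medians of arrays 1 and 2 both lay above those of arrays 3 and 4, which was not so in seu or seu ant. In a split added after the values were seen, the variable members had median changes of -3.27 (seu), -0.71 (ant) and -4.14 (seu ant) over arrays 1 and 2 alone, and over arrays 3 and 4 alone -2.01, -0.94 and -1.78. The steady members had -0.97, -0.87 and -1.78 over arrays 1 and 2 and -0.85, -0.86 and -1.72 over arrays 3 and 4.

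**Figure D2:**
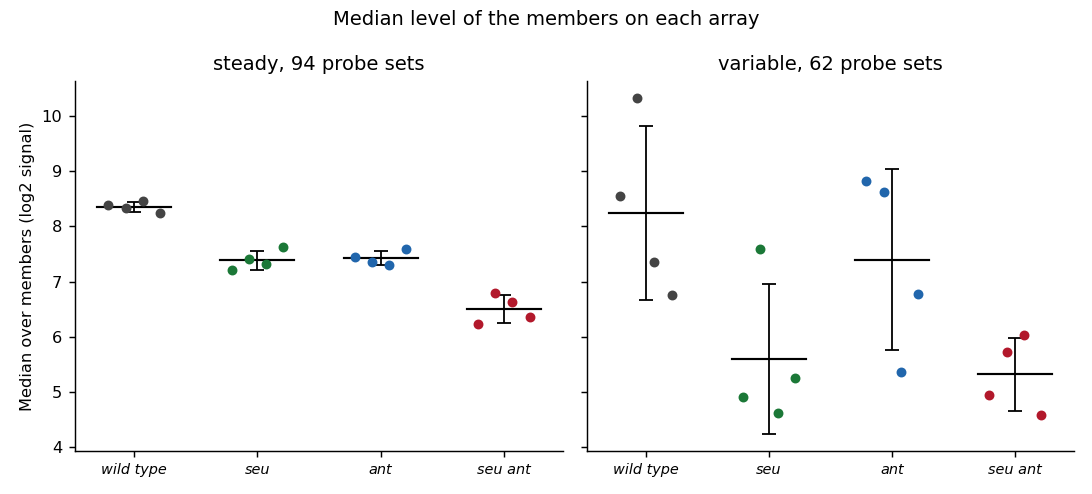
Median log2 signal over the steady members (left) and over the variable members (right) on each of the 16 arrays. Points stand for arrays 1 to 4 of a genotype from left to right, bars for the mean and SD over 4 arrays. Steady members separate wild type, single mutants and seu ant, while the variable members range from 6.76 to 10.33 within wild type alone.

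Over the 94 steady members, the median change from wild type was -0.88 log2 units in seu, -0.79 in ant and -1.68 in the double mutant. This left 54.3% of the wild-type level in seu, 57.6% in ant and 31.3% in the double mutant, as ratios of geometric means. Single steady members kept between 10.5% and 70.6% in seu, between 11% and 70.6% in ant and between 3.46% and 49.7% in the double mutant, from wild-type means between 7.01 and 13.26 log2 units. In the model fitted over all probe sets, with the call at a Benjamini-Hochberg adjusted limma p under 0.05 and a difference over 0.35, 35 of the 94 were called lower in seu, where 0.914% of all probe sets were. In ant 43 steady members were called lower, beside a background of 3.03%, and in seu ant 93, beside 11.4%. In all 3 mutants together 24 steady members and no variable member were called lower, beside 0.229% of all probe sets. Without wild-type array 1 the members called lower numbered 21 in seu, 26 in ant and 12 in all 3 mutants, and without seu array 1 they numbered 21 in seu and 14 in all 3. All wild-type arrays lay above all 12 mutant arrays for 58 steady members and for no variable member, beside 1.22% of all probe sets. Against a single genotype, all wild-type arrays lay above all seu arrays for 74 members, beside 4.13% of all probe sets, above all ant arrays for 70, beside 6.77%, and above all seu ant arrays for 142, beside 13.1%. These counts restate the contrasts that chose the members. The spread that divides the 2 kinds also enters the limma call and the overlap of arrays. That calls and separate arrays fall to steady members, here and below, thus follows in part from the division.

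Among the steady members, those annotated as regulators of transcription or RNA included genes of carpel and flower development. SPATULA (SPT), a bHLH transcription factor required for the carpel margins and the transmitting tract, had signals of 1372, 915, 1283 and 1187 in wild type, 558, 766, 954 and 771 in seu, 849, 645, 741 and 994 in ant and 365, 421, 534 and 504 in the double mutant. The wild-type array with the lowest SPT signal overlapped the seu and ant arrays, and all seu ant arrays lay below all others. SPT was at 63.7% of wild type in seu, 67.8% in ant and 38.3% in the double mutant.

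PETAL LOSS (PTL), a trihelix transcription factor that limits growth between sepals, was picked after its values were seen. It gave 382, 328, 361 and 360.4 in wild type, 142, 171, 233 and 208 in seu, 282, 196, 187 and 275 in ant and 97.9, 109, 74.9 and 91.9 in the double mutant. The 4 wild-type arrays of PTL lay above all mutant arrays and the 4 seu ant arrays below all others. LATERAL SUPPRESSOR (LAS), a GRAS-family regulator needed to form axillary meristems, gave 143, 155, 205 and 188 in wild type, 103, 109, 123 and 82.6 in seu, 146, 114, 128 and 84.5 in ant and 25.5, 78.4, 40.9 and 22.7 in the double mutant. Its means were at 60.5% in seu and 67.7% in ant, and its highest ant array was above its lowest wild-type array. IQD16, a member of the IQ67-domain family of calmodulin-binding proteins, gave 243, 238, 273 and 200.4 in wild type, 88.5, 98.8, 124 and 69.9 in seu, 84.5, 87.7, 115 and 133 in ant and 28.8, 16, 21.3 and 23 in the double mutant, without overlap between wild type, single mutants and double mutant.

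Further steady regulators, picked for their annotation after their values were seen, were also lowest in seu ant. AT4G31615, a B3-family gene of the REM group, was at 59.7% of wild type in seu, 51% in ant and 23.7% in the double mutant. AT4G01460, of the bHLH family, was at 32.7%, 29.9% and 16.8% in the same genotypes. AT1G76110, which carries HMG and ARID DNA-binding domains, was at 36.9%, 49.1% and 13.1%. TEL2, an RNA-binding protein of the terminal ear1-like group, was at 57.1%, 58.6% and 37.1%. ROXY1, a glutaredoxin that controls petal development, was at 43.1% in seu, 66.5% in ant and 20.3% in the double mutant, with signals of 529.7, 368, 285 and 478 in wild type and 50, 118, 125 and 61.5 in seu ant. AT4G01460 and AT1G76110 were called lower in both single mutants, while AT4G31615 and ROXY1 were called in neither. The ant arrays of AT1G76110 and of ROXY1 overlapped those of wild type.

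**Figure D3:**
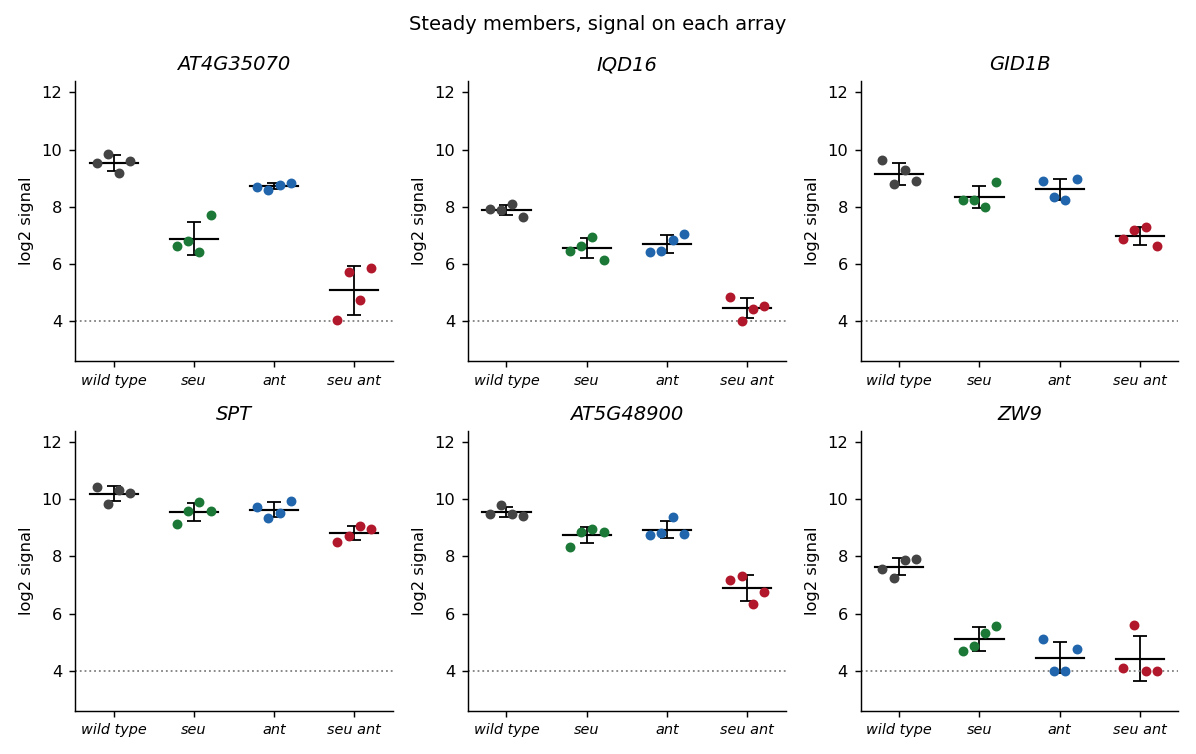
Log2 signal of 6 steady members on each array, with arrays 1 to 4 of a genotype from left to right, bars for the mean and SD over 4 arrays and a dotted line at the floor of 4. In every panel but that of ZW9 the seu ant arrays lie lowest without overlap, and in the ZW9 panel they lie beside the ant arrays.

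Genes of hormone perception, small-molecule transfer and transport were also among the steady members. GID1B, a gibberellin receptor, gave 797, 443, 623 and 480.0 in wild type, 299.9, 301, 255 and 472 in seu, 473, 321, 304 and 501 in ant and 117, 145, 159 and 98 in the double mutant. Its single-mutant arrays overlapped those of wild type, while its seu ant arrays lay below all others, at 22.4% of wild type. UGT74F1, a UDP-glucosyltransferase, gave 163, 204, 117 and 322 in wild type and 16, 16, 16 and 34.5 in seu ant, where 3 arrays were at the floor. Its changes of -1.01 log2 units in seu and -0.86 in ant were not called, and its ant arrays overlapped those of wild type. UGT74D1, of the same enzyme family, was at 58.2%, 62.6% and 42% of wild type in seu, ant and seu ant. INT4, an inositol transporter, was at 50.1% in seu, 35.6% in ant and 30.6% in the double mutant, and APS4, an ATP sulfurylase of sulfate assimilation, at 56.7%, 46.9% and 36%. UGT74D1, INT4 and APS4 were picked after their values were seen.

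Steady members annotated with products of the cell wall, secretion and protein turnover covered a wide range of losses. AT5G48900, of the pectate lyase family, gave 716, 889.6, 719.9 and 688 in wild type, 323, 466, 493 and 466 in seu, 431, 452, 673 and 446 in ant and 144, 161, 80.2 and 107 in the double mutant. AT5G48490, of the lipid transfer and protease inhibitor family, gave 1442, 1033, 1293 and 1410.5 in wild type, 177, 276, 264 and 525 in seu, 620.0, 388, 350.3 and 478 in ant and 81.1, 139.6, 129 and 96.4 in the double mutant, with no overlap of wild type with any mutant. The other genes of this kind were picked after their values were seen. AT1G09460, annotated as related to a beta-glucosidase of glucans, was at 40.5% of wild type in seu, 29% in ant and 15.3% in the double mutant. The lipase AT2G03980, with a GDSL motif, was at 45.1%, 61.3% and 21.3%, the serine carboxypeptidase-like SCPL27 at 47.5%, 64.3% and 35.1%, and the ubiquitin-conjugating UBC16 at 51.6%, 56% and 23.9%. AT1G09460 was called lower in both single mutants and AT2G03980 in seu only. UBC16 was called in neither, and its seu arrays overlapped those of wild type. AT1G23000, with a heavy-metal-associated domain, was among the more strongly reduced, at 25.8% in seu, 32.3% in ant and 12.1% in the double mutant.

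The single mutants could be compared with each other, since the limits did not fix which of them was lower. Both means were used by the limits, however, so this comparison and its p-values below are read as descriptions. For the steady members the median difference of seu from ant was -0.03 log2 units, 59 of 94 had single-mutant means within 0.35 of each other, 21 were lower in seu by more than that and 14 lower in ant. The test of seu against ant called 6 of 156 members lower in seu, beside 1.06% of all probe sets, and all 6 were steady. It called 0 members lower in ant, beside 1.87%, and 0 without variance moderation. At an unadjusted limma p under 0.05, 8 of the 156 were lower in ant, as were 2010 of all 22746 probe sets. The 6 were AT4G35070, AT3G25670, AT5G62960, AT5G57910 and 2 probe sets paired with no gene, numbers 261111 and 246025.

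AT4G35070, which the study lists as an unknown protein, gave 739.7, 911, 578 and 769 in wild type, 97.8, 111, 85.8 and 209 in seu, 418, 386, 433 and 457 in ant and 16.4, 52.3, 26.7 and 57.6 in the double mutant. The 4 genotypes did not overlap, and seu lay below ant by 1.84 log2 units (SE 0.36, limma adjusted p = 0.0159). AT3G25670, of the leucine-rich repeat family, gave 359, 332, 352 and 311 in wild type, 37.7, 33.6, 47.7 and 84 in seu, 126, 91.6, 142 and 128 in ant and 34.7, 16, 21.2 and 16 in the double mutant. Its seu arrays lay below its ant arrays, with a difference of -1.34 (SE 0.29, limma adjusted p = 0.0239). For AT5G62960 the difference was -0.82 (SE 0.15, limma adjusted p = 0.00993) and for AT5G57910 -0.73 (SE 0.18, limma adjusted p = 0.0401), both listed as unknown proteins. The probe set 261111, at 16, 33.8, 22.9 and 85.8 in seu and 178, 174, 302 and 222 in ant, differed by -2.73 (SE 0.42, limma adjusted p = 0.004).

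The count of 6 depended on single arrays. It was 2 without seu array 1, and 3 without seu array 2 or 3 or without ant array 1 or 4. With a floor of 1 in place of 16 it was 3. AT5G62960 was called under every omission of a single array, while AT4G35070 lost its call in 1 of the 16, AT3G25670 in 6 and AT5G57910 in 11.

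The seu ant mean lay below both single-mutant means for all but 6 of the 94 steady members and all but 14 of the 62 variable ones. All 4 seu ant arrays were below all 8 single-mutant arrays for 39 steady members and for 1 variable member, ARD3, beside 5.43% of all probe sets. In the order of wild type above the single mutants above seu ant, with no array out of place, stood 29 steady members, beside 0.365%. The fit called seu ant lower than seu for 57 steady members and 1 variable member, beside 5.5% of all probe sets, and lower than ant for 56 and 4, beside 9.32%. It called 0 members higher than seu, beside 4.68%, and 0 higher than ant, beside 9.7%, with 0 at an unadjusted limma p under 0.05 in either case. Over all 22746 probe sets, 2445 and 3406 were higher at that unadjusted p. These comparisons share the means that the limits used and are descriptions.

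On the log2 scale the steady members lay on both sides of the sum of the single-mutant changes. The median departure of seu ant from that sum was 0.05 log2 units, with 42 members within 0.35 of it, 30 farther below and 22 farther above. The 62 variable members lay mostly above the sum, with a median departure of 0.50. Of these, 19 were within 0.35 of it, 3 farther below and 40 farther above. The departure is built from the means that chose the members, so it is a description. The fit called 3 members below the sum, beside 2.32% of all probe sets, and 1 above, beside 2.77%, all steady. The 3 called below the sum were AT5G48900 at -1.25 (SE 0.31) and 2 probe sets with no paired gene, probe set 262033 at -2.16 (SE 0.33) and probe set 265468 at -1.73 (SE 0.33). The signals of probe set 262033 were 502, 317, 396 and 298 in wild type, 170.4, 196, 165 and 256 in seu, 108, 194, 129.9 and 194 in ant and 16, 24.1, 16 and 16 in the double mutant, so 3 of the seu ant arrays were at the floor. Measured on linear signal instead, with no size limit, the fit called 0 members below the sum and 12 above it. The counts thus depended on the scale, and they do not show whether a single member changed sides.

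**Figure D4:**
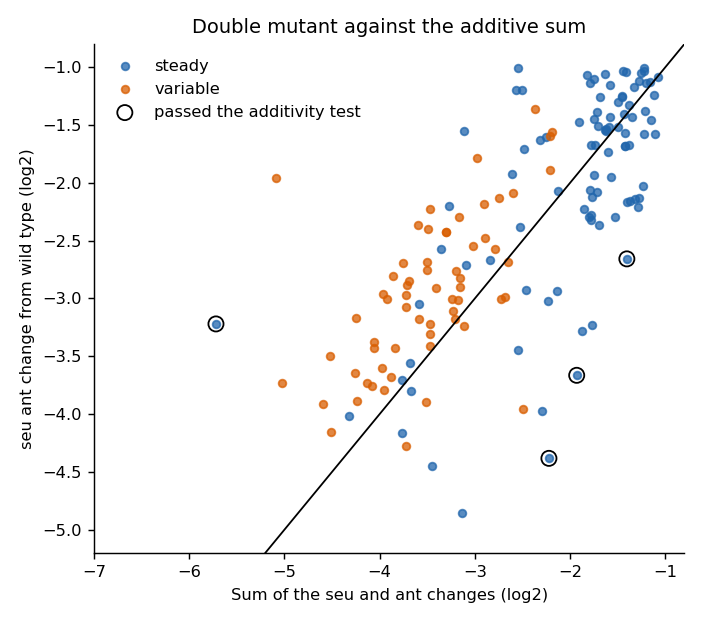
Change of seu ant from wild type (vertical axis, log2) against the sum of the seu and ant changes (horizontal axis, log2) for each member, steady in blue and variable in orange. The diagonal is the additive sum. Circles mark the 3 members called below it and the 1, ZW9, called above it.

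ZW9 was the member called above the sum. Its signals were 188, 153, 236 and 238 in wild type, 26, 28.9, 39.9 and 47.7 in seu, 34.3, 16, 16 and 27.1 in ant and 17.2, 48.7, 16 and 16 in the double mutant, and the departure was 2.50 (SE 0.52). In ant 2 arrays and in seu ant 2 arrays were at the floor, so no lower value could be recorded there, and with a floor of 1 no member was called above the sum. UGT74F1, at -1.40 and LAS, at -0.93, were not called. AT4G27450 was a steady member in which seu ant did not go below the single mutants: it gave 2825, 1466, 2054 and 2152 in wild type, 586, 1062, 763 and 1662 in seu, 1272, 463, 518 and 1182 in ant and 491, 1759, 1281 and 1001 in the double mutant, with the 3 mutants overlapping.

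The 62 variable members had median changes of -2.62 log2 units in seu, -0.81 in ant and -2.98 in the double mutant. Of these 62 the fit called 0 lower in seu, beside 0.914% of all probe sets, and 1 lower in ant, beside 3.03%. It called 37 lower in the double mutant, beside 11.4%. In seu 57 were lower at an unadjusted limma p under 0.05, as were 1671 of all 22746 probe sets. These contrasts chose the members, so the counts are descriptions. The variable members kept between 7.54% and 69.0% of the wild-type level in seu, between 8.76% and 69.5% in ant and between 5.15% and 38.8% in the double mutant. Their arrays moved together. Wild-type array 2 was the highest of the 4 in 60 of the 62, wild-type array 4 the lowest in 56, seu array 2 the highest in 59 and ant array 3 the lowest in 60. Ant array 1 was above wild-type array 4 in 60 of 62 variable members and in 3 of 94 steady members. Over the 26 other probe sets of as large a spread and as high a wild-type mean, the wild-type array medians ranged over 2.2-fold. The limits used the wild-type and ant means, so a high wild-type array 2 and a low ant array 3 helped to admit members. The shared order of arrays and the contrast with the 26 thus follow in part from the choice.

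Several of the named variable members are known from pollen, the male gametophyte. All but PLIM2a were picked for their annotation after their values were seen. PLIM2a, an actin-binding LIM-domain protein of pollen, gave 250.0, 969.9, 109 and 61.9 in wild type, 46.5, 140.0, 16 and 45 in seu, 368, 282, 16 and 90.4 in ant and 32.2, 73.7, 80.2 and 60.7 in the double mutant. RALFL4, a peptide of the rapid alkalinization factor family that acts in pollen tubes, gave 348, 1299, 72.3 and 100.2 in wild type, 16.3, 116, 16 and 16 in seu, 442, 408, 16 and 98.5 in ant and 16, 40, 27.4 and 16 in the double mutant. The highest wild-type array and the lowest one thus differed more than the wild-type mean differed from the ant mean. Both were highest on wild-type array 2, while the lowest wild-type array was 4 for PLIM2a and 3 for RALFL4.

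A probe set shared by VGD1 and VGDH1, pectin methylesterases of which VGD1 acts in pollen tube growth, gave 1626, 4938, 578 and 304 in wild type, 86.8, 765, 38 and 79.8 in seu, 1832, 1817, 87 and 416 in ant and 69.7, 81.5, 170.1 and 43.3 in the double mutant. Another shared probe set, of the pollen pectin methylesterase PPME1 and AT5G07410, gave 372, 1961, 205 and 140.1 in wild type, 16, 217, 16 and 20.7 in seu, 949, 679, 30.2 and 154 in ant and 22.8, 20.3, 59.8 and 16 in the double mutant. A shared probe set does not separate its genes. The peptide genes RALFL25 and RALFL26 and the carbonic anhydrase ACA3 were likewise highest on wild-type array 2, at 149, 848, 96.2 and 48.9, at 339, 1092, 89.7 and 111 and at 552, 2165, 167 and 111 in wild type.

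**Figure D5:**
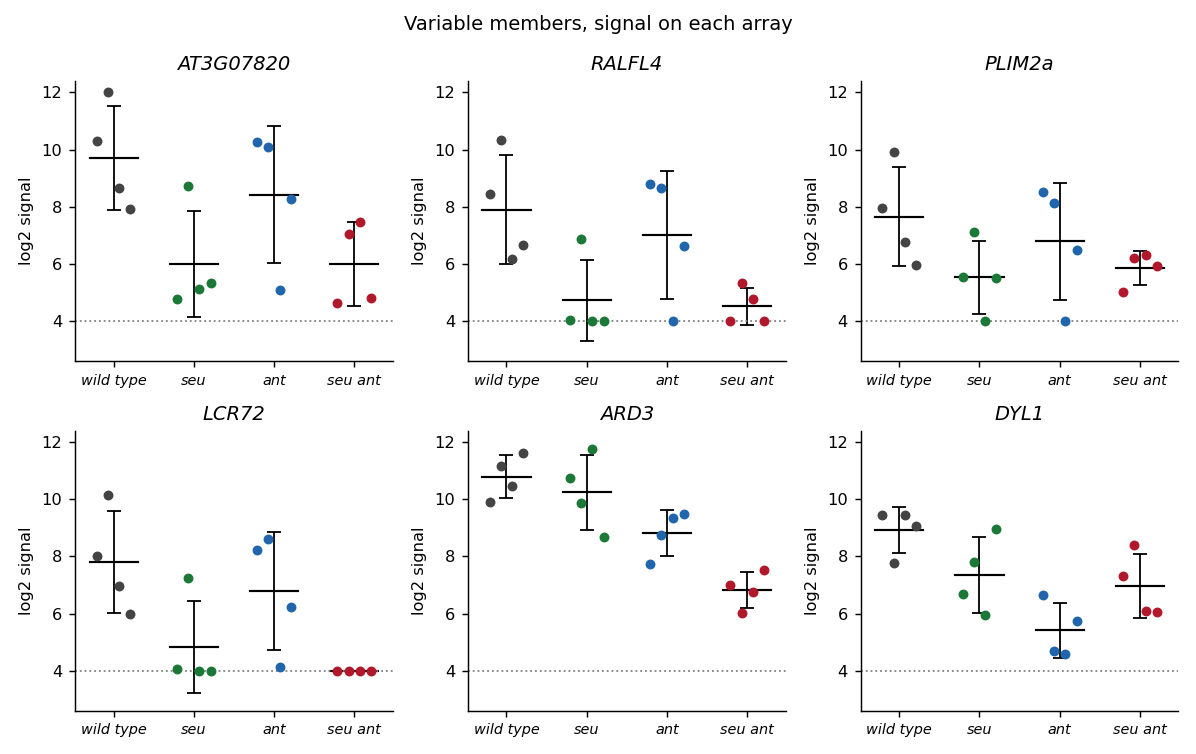
Log2 signal of 6 variable members on each array, drawn as in the plot of steady members. The panels of AT3G07820, RALFL4, PLIM2a and LCR72 have wild-type array 2 highest, while those of ARD3 and DYL1 do not.

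Apart from ARD3, the named variable members with the largest losses in seu ant were also highest on wild-type array 2 and lowest of the wild-type arrays on array 4. AT5G45880 gave 1167, 3392, 442 and 219 in wild type, 30, 497, 16 and 66.4 in seu, 1651, 1100.5, 56.8 and 336 in ant and 30.5, 71.7, 108 and 16 in the double mutant. LCR72, a small cysteine-rich protein, gave 261, 1149.9, 126 and 64 in wild type and was at the floor on every seu ant array, so it was at least 13.9-fold lower there. AT3G28830 likewise reached the floor on every seu ant array, at least 10.6-fold lower, as did the steady member AT1G65810, at least 8.14-fold lower. AT3G07820, AT5G07430, AT4G02250, AT3G26110 and AT1G10770 had wild-type means between 8.33 and 9.72 with SDs of 1.66 to 1.94 (n = 4), and changes in seu ant of -3.50 to -3.73.

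Because of this spread the choice of the variable members rested on single arrays. With the limits applied again without wild-type array 2, 3 of the 62 variable members and 88 of the 94 steady members were still chosen. Without ant array 3, 5 variable and 83 steady members were. The median change of the variable members in ant moved from -0.81 to -0.11 without wild-type array 2 and to -0.08 without ant array 3, while that of the steady members was -0.84 and -0.80. Leaving out the highest array of each genotype (wild-type 2, seu 2, ant 1 and seu ant 3), an alternative added after the data were seen, left 29 variable and 78 steady members.

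A list of 41 late pollen genes, put together after these values were seen, had 10 measured members, of which PLIM2a and RALFL4 belong to the variable members. Its signal, summed on each array, ranged between 514 and 2955 for wild type, between 355 and 551 for seu, between 341 and 1259 for ant and between 368 and 479.8 for seu ant. Over the 8 genes that were not members, the sum was 433, 686, 494 and 352 on wild-type arrays 1 to 4, with array 2 again highest and array 4 lowest. On arrays 1 to 4 these sums were 292, 295, 355 and 333 in seu and 449, 501, 309 and 331 in ant. In seu ant they were 323, 366, 334 and 291. Seu array 2, the highest for most variable members, was thus not the highest here, while ant array 3 was again the lowest. By gene, wild-type array 2 was highest for PLIM2b, ANX2, ACT12 and ANX1. Wild-type array 3 was highest for AGL65 and MGH3, and array 1 for AGL66 and AGL104. Of these 8 genes, PLIM2b, AGL65, ANX2 and MGH3 had wild-type means of 7.38, 6.48, 5.83 and 5.39 log2 units, and AGL66, ACT12, ANX1 and AGL104 lay nearer the floor of 4, at 4.95, 4.60, 4.30 and 4.09. The part of pollen transcripts in the losses of the variable members was not tested.

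ARD3 and DYL1 were variable members with their own order of arrays. ARD3, an acireductone dioxygenase of the methionine salvage pathway, gave 965, 2297, 1398 and 3131 in wild type, 1697, 929, 3447 and 406 in seu, 211, 430.1, 654 and 712 in ant and 129, 64.6, 107 and 187 in the double mutant. Its seu arrays spanned the whole wild-type range, its ant arrays lay below wild type and its seu ant arrays below all others. DYL1, a dormancy-associated protein, gave 705, 218, 697 and 530.0 in wild type, 103, 227, 61.5 and 493 in seu, 99.7, 25.7, 24.1 and 54 in ant and 158, 341, 68.8 and 66.7 in the double mutant. It was lowest in ant, at 8.76% of wild type against 33.4% in seu and 25.7% in seu ant, and the difference of seu from ant was 1.93 (SE 0.73, limma adjusted p = 0.205). For the variable members as a whole, 60 of 62 had a lower mean in seu than in ant, with a median difference of -1.84. The limma test called 0 of them in either direction. At an unadjusted limma p under 0.05, 12 were lower in seu and 2 lower in ant. Over all 22746 probe sets these numbered 1492 and 2010.

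Beyond their levels the members shared few features that could be counted. Of 90 member genes placed on the reference assembly, 21, 12, 20, 13 and 24 lay on chromosomes 1 to 5. These were 23.3%, 13.3%, 22.2%, 14.4% and 26.7%, beside 26.1%, 15.3%, 19.9%, 15.1% and 23.0% of all named genes. Of the 39 variable genes, 15 (38.5%) were on chromosome 3, which was not tested. There were 7 pairs of member genes within 10 genes of each other, among them the adjacent RALFL25 and RALFL26. Of 40 genes in a list of carpel margin and ovule regulators, 13 were paired with a probe set of their own, and SPT was the member among these 13. Of them, 2 genes were called lower in seu, 0 in ant and 5 in the double mutant, and 0, 1 and 1 were called higher. The median over its genes was -0.24 for seu, 0.00 for ant and -0.24 for the double mutant, where the medians over all probe sets were -0.02, -0.02 and -0.03. GID1B was the member among 3 measured of 26 gibberellin genes, with 1 called lower in seu ant and none in seu or ant. IQD16 was the member among 16 measured of 33 IQ67-domain genes, and of the 16 5 were called lower in seu, 1 in ant and 8 in the double mutant, and 2, 2 and 3 higher, with median changes of -0.12, -0.03 and -0.50. Of all probe sets, 1.27% were called higher in seu, 1.89% in ant and 8.3% in the double mutant.

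Several members lay close to a limit. AT1G65810 had a wild-type mean of 7.02, and AT3G26860, just outside, 6.98. AT5G63700, a zinc finger protein, had a change of -0.50 in seu that passed the limit by 0.0032, while AT4G17370 at -0.47 did not. AT5G57910 passed the limit on ant by 0.0015, at -0.50, and AT4G33160 missed it by 0.0022, also at -0.50. AT4G20320 passed the limit on seu ant at -1.01, and AT5G02890 missed it at -0.99. Neighbours on either side of a limit thus differed by less than their spread between arrays.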

How the data were processed

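The authors' deposited values were MAS5 signal intensities from ATH1 arrays, 4 for each of 4 genotypes, scaled per array to a 2% trimmed mean of 500 over all 22810 probe sets. No source used here gives the MAS5 version. For their tests the authors worked on loess-normalized log2 intensities in JMP Genomics, which are not used here. The number of arrays limits the precision.

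From these intensities 64 AFFX control probe sets were left out, signals were raised to at least 16 and log2-transformed. limma 3.58.1 (R 4.3.3) fitted 22746 probe sets with 1 mean per genotype, with Benjamini-Hochberg adjustment over all probe sets and a call at an adjusted p under 0.05 and a difference over 0.35. Zero-spread probe sets at the floor stayed in the fit (prior degrees of freedom 1.04). Figures were drawn with matplotlib 3.10.9. The fit was tested on simulated data. The limits, members and gene lists were chosen with earlier results of these data known.

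Gene names came from the platform annotation with TAIR10.1 gene symbols, and for 340 probe sets from identifiers in a table of the study, so that 13853 probe sets have 1 gene. The genes named were taken from the 12 largest falls in seu ant, those called between seu and ant (up to 6 each way), the 5 farthest on each side of the additive sum, the 6 in which seu ant was most above the lower single mutant, members of the gene lists and the 3 nearest on each side of each limit. Some genes of the group of 6 and many of those near the limits are not named above. Every other gene named was picked after its values were seen. Alternatives were other floors, centring, quantile normalization, a filter on dim probe sets, lower against higher title numbers as a block, no moderation, a linear scale and each array left out.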

Additional observations from a re-analysis of the deposited data

Results flagged for a closer look

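Of 242 genotype groups of 4 arrays checked for named members and array medians, 14 held an array far from the other 3, where chance flags about 1 group in 20. The share found was near that, so the arrays below are listed as a description. That rate does not hold where the other 3 arrays lie at or near the floor. This was so for UGT74F1, AT5G50830, LCR72 and RALFL4, in which the gap filled nearly the whole range. In seu, array 2 was the distant one for the variable members LCR72 with a signal of 153, RALFL25 with 113, RALFL4 with 116, AT5G07430 with 311 and AT3G07820 with 429. The same array stood apart for AT5G50830, also a variable member, with 86.6 against 16 on the other 3 arrays. AT5G50830 also had a distant seu ant array 3, at 54.1. These members share the arrays on which they are high, so they are not separate observations.

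Among steady members, seu ant array 4 of UGT74F1 had 34.5 and seu ant array 2 of ZW9 had 48.7, where the other arrays were at or near the floor. AT3G26760, a short-chain dehydrogenase or reductase, was at the floor of 16 on seu array 3 and at 71.2 to 79.4 on the other seu arrays. AT1G72840 had a high wild-type array 3 at 169.7 and a high ant array 4 at 93.4. AT5G48900 had a low seu array 1 at 323 and a high ant array 3 at 673.

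For 4 steady members the fit called a departure from the additive sum, that is, a seu change that differed with and without ANT function, on means that also chose the members. The difference was -2.16 for probe set 262033, -1.73 for probe set 265468 and -1.25 for AT5G48900, and 2.50 for ZW9. On linear signal no member was called below the sum, and with a floor of 1 none was called above it.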

How the results depend on the processing

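The rule gave 93 members with each array centred on its median, which removes the ant shift of -0.16, and 79 among probe sets with a mean of at least 7, a filter that left 77 members out of the fit. With 1 array left out the rule gave 92 to 204.

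Members called lower in seu than in ant numbered 3 with a floor of 1, 0 without the highest array of each genotype and 2 to 6 with 1 array left out. Members called lower in ant numbered 1 under the filter on dim probe sets and 0 to 1 with 1 array left out. Below the additive sum were 6 with centring, 5 under the filter, 0 on linear signal and 2 to 7 with 1 array left out. Above it were 0 with a floor of 1, 2 with a floor of 32, 3 under the filter, 12 on linear signal and 1 to 2 with 1 array left out. The counts on linear signal carry no size limit. The count of 7 came without seu ant array 3.

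Against wild type, without the highest array of each genotype, 7 members were called lower in seu, 28 in ant and 4 in all 3 mutants. With a floor of 1 the last count was 15, and under the filter 77 were called in seu ant. With 1 array left out the counts ranged between 21 and 43 for seu, between 26 and 49 for ant and between 12 and 29 for all 3 mutants, with the low values of 21, 26 and 12 without wild-type array 1, and 21 and 14 in seu and in all 3 mutants without seu array 1. The cause was not tested, except that omission and filtering leave fewer arrays or probe sets to fit.

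Every median change kept its sign under each alternative run. The sign of the ant change turned in 5 of 20 named variable members without wild-type array 2 and in 8 without ant array 3, and in no named steady member. The floor limits the falls of dim members: AT1G65810 in seu ant went from -3.02 to -2.02 with a floor of 32 and to -5.08 with a floor of 1.

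No paired analysis was possible because the labels give no replicate numbers that tie single arrays across genotypes. With lower against higher title numbers as a block, 6 members were called lower in seu than in ant, 3 below and 1 above the additive sum, 36 lower in seu, 42 in ant and 24 in all 3 mutants. The planned promoter motifs were not run, and annotation keywords covered 7 of 90 member genes, too few to describe.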
